A study of Mus musculus with 12 samples.

Results

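Mitochondrially encoded respiratory genes are the protein genes that animals still keep on the small circular genome inside mitochondria. The 10 described here (mt-Nd1, mt-Nd2, mt-Nd4, mt-Nd5, mt-Nd6, mt-Cytb, mt-Co1, mt-Co2, mt-Co3 and mt-Atp6) were taken by symbol from a table of 35275 mouse genes, and each symbol matched 1 row. That table holds poly(A) RNA-seq of whole lung from 12 male wild-type C57Bl/6J mice, with 3 mice and 3 libraries at each of 3, 6, 12 and 24 months of age and no treatment other than age. The sources used here do not say whether mice of 1 age shared a litter, a cage or a sequencing run. All 10 genes held enough reads to be tested, among 16042 genes in all.

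The respiratory chain passes electrons through complexes I, III and IV of the inner mitochondrial membrane and uses the proton gradient this makes to drive ATP synthase. Most subunits of these complexes are encoded in the nucleus, but the membrane core of complex I, cytochrome b of complex III, the catalytic core of complex IV and the proton channel of ATP synthase come from mitochondrial DNA. Both strands of that DNA are transcribed as long precursors, which are cut into shorter RNAs, and most of the messenger RNAs are given short poly(A) tails. Which of the 10 RNAs carried such tails in these libraries was not measured. Of the genes described here, mt-Nd6 is the one encoded on the opposite strand from the rest. All 10 are protein genes without introns. On the mitochondrial genome of mm10, mt-Nd1 lies at 2751 to 3707, mt-Nd2 at 3914 to 4951, mt-Co1 at 5328 to 6872 and mt-Co2 at 7013 to 7696. They are followed by mt-Atp6 at 7927 to 8607, mt-Co3 at 8607 to 9390, mt-Nd4 at 10167 to 11544, mt-Nd5 at 11742 to 13565, mt-Nd6 at 13552 to 14070 on the other strand, and mt-Cytb at 14145 to 15288. In lung, cells with many mitochondria include type 2 cells, which make surfactant, and ciliated cells.

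Stretches of mitochondrial DNA have also been copied into nuclear chromosomes, and reads from such a copy and from the gene itself can be hard to tell apart. The table lists 7 rows in a copy at chr1:24611535-24616197 (mm10), and the GENCODE M21 transcripts on the same build show how alike they are. RP23-8J15.2 (Gm28661 in current naming) matched mt-Co2 over 681 of its 684 bases with no mismatch. The first 90 bases of both are shown as an example, and they contain no difference.
mt-Co2: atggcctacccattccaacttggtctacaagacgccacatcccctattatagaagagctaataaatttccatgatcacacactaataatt
RP23-8J15.2: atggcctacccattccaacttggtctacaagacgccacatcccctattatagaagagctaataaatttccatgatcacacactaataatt
The nearest nuclear relative of mt-Nd6, Gm11408 on chromosome 4, was less alike, with 33 mismatches over 519 bases. In the first 90 bases of this pair, capitals mark the 3 bases that differ.
mt-Nd6: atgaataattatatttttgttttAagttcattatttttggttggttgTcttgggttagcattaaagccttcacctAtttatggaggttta
Gm11408: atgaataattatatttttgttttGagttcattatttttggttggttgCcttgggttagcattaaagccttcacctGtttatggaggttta
The genes mt-Nd5 and mt-Nd6 lie on opposite strands and overlap by 14 bases at their ends, from 13552 to 13565 of the mitochondrial genome. Their last 60 bases are shown with the shared bases in capitals, each 5′ to 3′ on its own strand, so the capitals of one are the reverse complement of the other's.
mt-Nd5 end: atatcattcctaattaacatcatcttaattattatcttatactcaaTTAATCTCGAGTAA
mt-Nd6 end: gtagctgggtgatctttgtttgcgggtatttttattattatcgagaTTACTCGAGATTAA
No source used here says whether the counting used strand, so reads from mt-Nd6 and from the opposite strand of the same stretch cannot be told apart.

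The 10 genes did not share 1 level. On the scale of FPKM, reads scaled by gene length and library depth, mt-Co1, the catalytic subunit of complex IV, was highest with a median of 4956 over the 12 libraries. The level of mt-Cytb, cytochrome b of complex III, had a median of 2729 FPKM. The complex I subunits mt-Nd1, mt-Nd2 and mt-Nd4 had median levels of 2216, 2063 and 1374 FPKM. The 2 other complex I subunits, mt-Nd5 and mt-Nd6, had median levels of 768 and 767 FPKM. Far below stood mt-Co2 and mt-Co3, the other core subunits of complex IV, with medians of 25.5 and 22 FPKM, and mt-Atp6, the proton channel subunit of ATP synthase, with 20.5 FPKM. The median FPKM of mt-Co1 was 194 times that of mt-Co2, and the lowest of the 7 high genes was 30.0 times the highest of the 3 low ones.

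The order of neighbouring genes was the same in all 12 libraries for mt-Co1 over mt-Cytb, mt-Cytb over mt-Nd1, mt-Nd2 over mt-Nd4 and mt-Nd6 over mt-Co2. It held in 10 of 12 libraries for mt-Nd1 over mt-Nd2 and in 11 of 12 for mt-Nd4 over mt-Nd5. The levels of mt-Nd5 and mt-Nd6 were in this order in 8 of 12 libraries, those of mt-Co2 and mt-Co3 in 7 of 12 and those of mt-Co3 and mt-Atp6 in 9 of 12, so these neighbours were not separated.

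The sequence of the 3 low genes recurs almost whole in the nuclear copy. Of all 50-base windows of the gene, 99.5% were found unchanged in the chromosome 1 copy for mt-Co2, 99.9% for mt-Co3 and 99.5% for mt-Atp6. That share was 62.2% for mt-Nd4 and 28.7% for mt-Co1, and no window of mt-Nd1, mt-Nd2, mt-Nd5, mt-Nd6 or mt-Cytb was found there. The copies of mt-Co2 and mt-Co3 held about as many reads as the genes: reads of mt-Co2 were 0.755 to 1.03 times those of its copy across libraries and reads of mt-Co3 0.891 to 1.06 times. The copy of mt-Atp6 held more reads than the gene in every library, reads of the gene being 0.445 to 0.553 times those of the copy. In contrast, reads of mt-Nd4 were 153 to 240 times those of its copy, and reads of mt-Co1 314 to 659 times. No source used here says how reads with 2 equal matches were treated, and the levels of mt-Co2, mt-Co3 and mt-Atp6, and the nuclear rows beside them, are therefore uncertain. The other mitochondrially encoded genes were also low: mt-Nd3 and mt-Nd4l, with 98.0% and 98.8% of windows in the copy, had mean levels of 1.78 ± 0.40 and 1.28 ± 0.56 CPM at 3 months (SD, n = 3). The lowest, mt-Atp8, held 6 reads in all 12 libraries together, although 0% of its windows were found in the copy. Only sequences of rows in the table were searched, and the bases between 24614651 and 24614885 of chromosome 1 lie in no row of the copy. The 10 further nuclear rows that resemble one of the 10 genes, Gm11408 among them, held 0 to 85 reads in the 12 libraries, and none was tested.

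**Figure D1:**
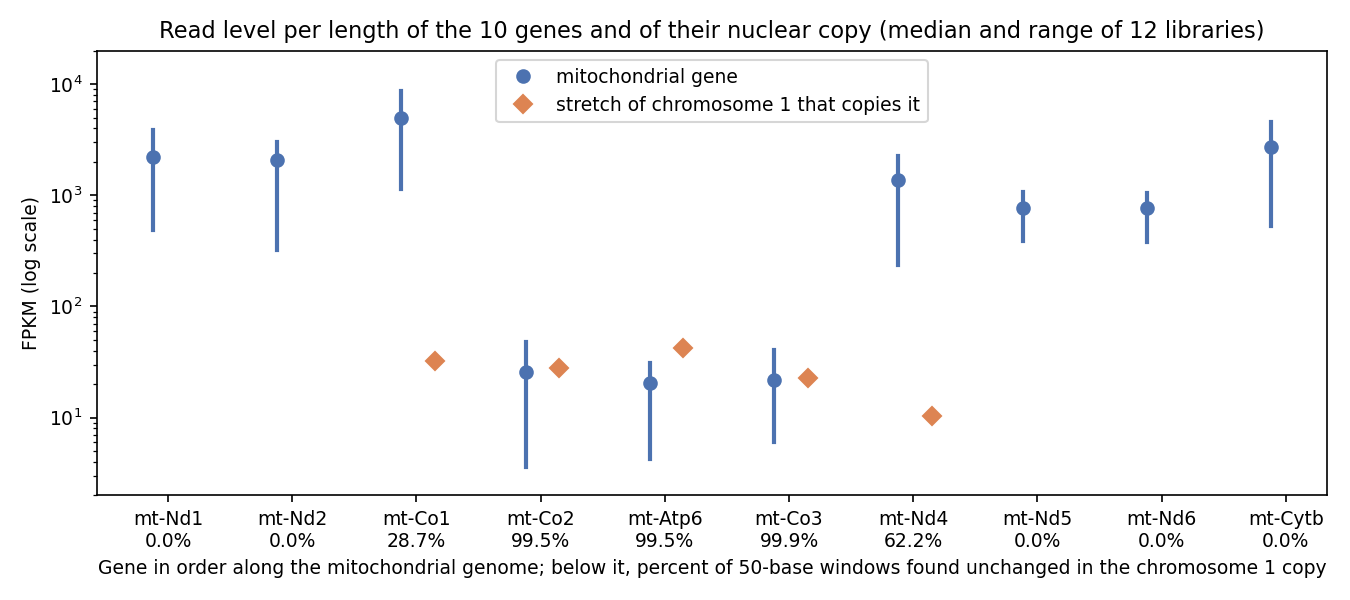
FPKM on a log axis for the 10 genes in order along the mitochondrial genome, as the median (circle) and range (line) of 12 libraries, with the median of the chromosome 1 row that copies part of the gene (diamond). The numbers under the gene names give the percent of 50-base windows found unchanged in that copy, and mt-Co2, mt-Atp6 and mt-Co3, at 99.5% or more, lie between medians of 20.5 and 25.5 FPKM while the other 7 lie at 767 or above.

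Together the 10 genes took 1.65, 1.89 and 1.95% of gene reads in the 3 mice at 3 months and 2.14, 2.06 and 1.84% at 6 months. They took 1.95, 1.96 and 3.12% at 12 months and 0.628, 0.596 and 0.443% at 24 months. The 3 mice at 24 months were below all 9 others, and mouse 3 at 12 months was above all others. Mean shares were 1.83 ± 0.16% at 3 months and 0.556 ± 0.099% at 24 months (SD, n = 3), and the 95% Wilson intervals of single libraries, which cover counting error only, reached at most 0.00848 percentage points to either side. In whole tissue, fewer cells rich in mitochondria and less mitochondrial RNA per cell cannot be told apart. Nor can either be told apart here from the properties of the 24-month libraries described next. The 7 high genes held 99.7 to 99.8% of these reads in every library.

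The libraries at 24 months stood apart from the rest in more than these genes. They held 14.7 to 18.0 M gene reads (M for 1000000 reads), against 15.3 to 21.2 M in the other 9, and 17533 to 18513 genes with a read, against 19539 to 20625. GC content, averaged over genes with each gene weighted by its reads, came to 54.3, 54.5 and 55.9% at 24 months, above the 50.5 to 51.8% of the others. The 10 genes have a GC content of 34.1 to 39.9%. Between 24 and 3 months 82.8% of all tested genes passed the test. The scaling factors that TMM gives from the bulk of the genes were 0.521 to 0.826 at 24 months and 1.06 to 1.20 in the others, so a level in CPM depends on the scaling chosen. Results are therefore given with TMM, with plain library totals, and after a smooth trend of reads on GC content and gene length had been removed from each library. Age and these library properties cannot be told apart in this design. Markers of lung were high at every age, with the 5 type 2 cell markers summing to between 22475 and 27853 CPM in the 3-month mice and between 34096 and 41390 CPM in the 24-month mice, and the 3 club cell markers to at least 15991 CPM in each of the 12 libraries. All sums of markers are given with TMM only. Because the TMM factors were smaller at 24 months, the 24-month sums would stand lower against those of younger mice with library totals. A difference between ages in these sums thus depends on the scaling. Other lists differed between these ages on the TMM scale. The 3 alveolar macrophage markers summed to between 563 and 695 CPM at 3 months and between 155 and 198 CPM at 24 months, the 4 type 1 cell markers to between 2915 and 3945 and between 8607 and 12365 CPM, and the 4 thymus and lymph node markers to between 22.8 and 46.2 and between 137 and 388 CPM. Of these last 4 markers, all had reads in each 3-month library but only 2 in each 24-month library, so the list did not move as 1 group. The 5 skeletal muscle markers summed to 352 CPM in mouse 3 at 24 months and to at most 32.8 CPM elsewhere. The part of these cells in the results at 24 months was not tested.

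**Figure D2:**
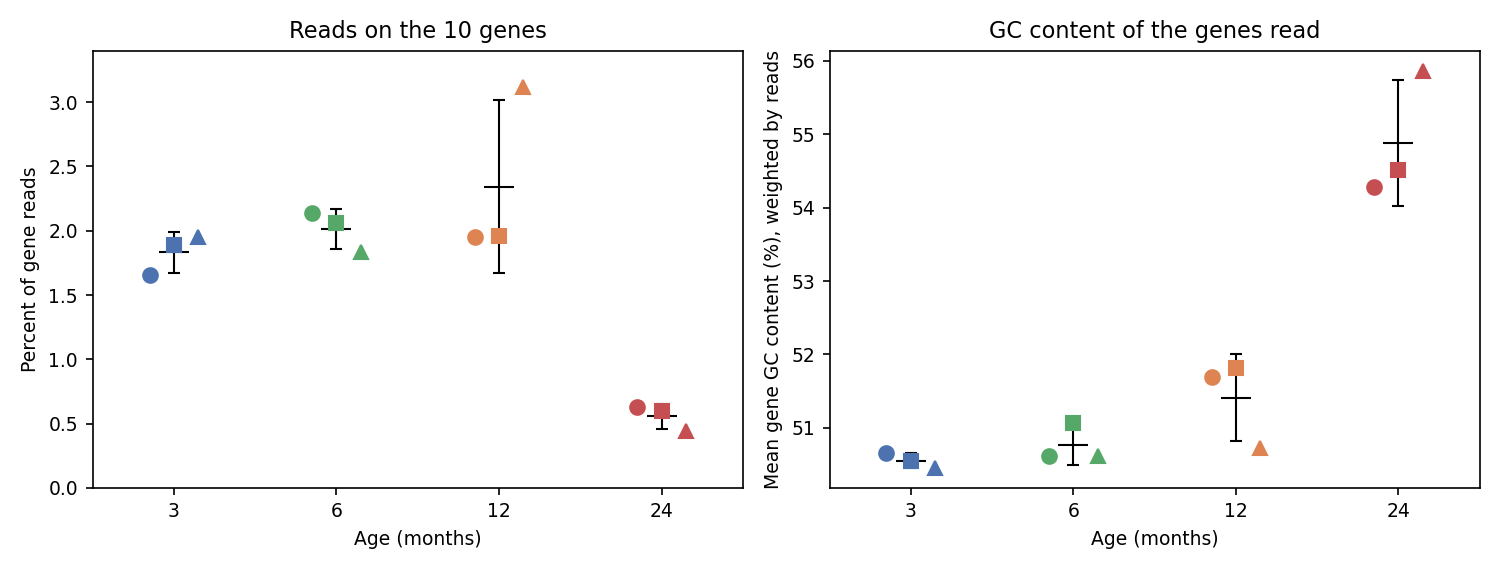
Left, percent of gene reads on the 10 genes in each library by age in months; right, the mean GC content of genes weighted by reads in percent, on an axis that does not start at 0. Points are mice (circle, square and triangle for mouse 1, 2 and 3) and bars are mean ± SD of 3 mice; the 24-month mice lie lowest on the left, at 0.443 to 0.628%, and highest on the right, at 54.3 to 55.9%.

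Complex I takes electrons from NADH, and its mitochondrially encoded subunits form the membrane arm that pumps protons. Levels below are CPM, reads per 1000000 of the TMM-scaled library, for mice 1, 2 and 3 of each age. The level of mt-Nd1, where the membrane arm meets the quinone site, was 1839, 1608 and 1826 at 3 months, 2067, 2024 and 1858 at 6 months, 2101, 2078 and 3494 at 12 months and 943, 1037 and 891 at 24 months. All 3 mice at 24 months were below every other mouse, and mouse 3 at 12 months was far above the rest. The level of mt-Nd2 was 1461, 1805 and 1995 at 3 months, 2054, 2117 and 1860 at 6 months, 1945, 2039 and 2959 at 12 months and 896, 1070 and 645 at 24 months. The level of mt-Nd4 was 1657, 1487 and 1626 at 3 months, 1866, 1687 and 1641 at 6 months, 1780, 1876 and 2936 at 12 months and 754, 900 and 631 at 24 months. These 2 antiporter-like subunits showed the order seen for mt-Nd1, with no overlap between 24 and 3 months.

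The other 2 complex I genes behaved otherwise. The level of mt-Nd5, the outermost pump of the membrane arm, was 686, 1446 and 1501 CPM at 3 months, 1382, 1593 and 1197 at 6 months, 1319, 1287 and 1849 at 12 months and 965, 918 and 1402 at 24 months. Mouse 1 at 3 months had the lowest level of all 12, and the 24-month mice lay within the range of the 3-month mice. The level of mt-Nd6, the subunit from the opposite strand, was 365, 345 and 350 CPM at 3 months, 381, 412 and 347 at 6 months, 359, 344 and 514 at 12 months and 289, 259 and 399 at 24 months. Mice 1 and 2 at 24 months were the lowest of all, but mouse 3 at 24 months was above every 3-month mouse.

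Cytochrome b carries electrons between the quinone sites of complex III. The level of mt-Cytb was 2631, 2712 and 2908 CPM at 3 months, 3086, 2948 and 2797 at 6 months, 2779, 2884 and 4924 at 12 months and 1217, 1259 and 1153 at 24 months. Complex IV hands electrons to oxygen at a centre held by the mt-Co1 protein. The level of mt-Co1 was 5589, 6304 and 6725 CPM at 3 months, 7147, 7289 and 6410 at 6 months, 7604, 7844 and 12641 at 12 months and 2528, 2309 and 3368 at 24 months. For both genes the 24-month mice did not overlap with any other age on this scale.

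The complex IV subunit mt-Co2, which takes electrons from cytochrome c, was at 20.6, 14.2 and 12.3 CPM at 3 months, 15, 13.8 and 16.6 at 6 months, 16.4, 19.1 and 30.6 at 12 months and 6.91, 7.05 and 4.68 at 24 months. The third core subunit, mt-Co3, was at 16.4, 11 and 12.1 CPM at 3 months, 17.6, 13.7 and 16.8 at 6 months, 21.6, 21.5 and 30.2 at 12 months and 8.89, 9.6 and 9.02 at 24 months. The ATP synthase subunit mt-Atp6 was at 13.0, 11.7 and 10.6 CPM at 3 months, 15, 12 and 12.2 at 6 months, 14.1, 13.5 and 19.8 at 12 months and 6.42, 7.42 and 5.50 at 24 months. In these 3 genes, as in mt-Nd1, mt-Nd2, mt-Nd4, mt-Cytb and mt-Co1, the 24-month mice were below all others on this scale.

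**Figure D3:**
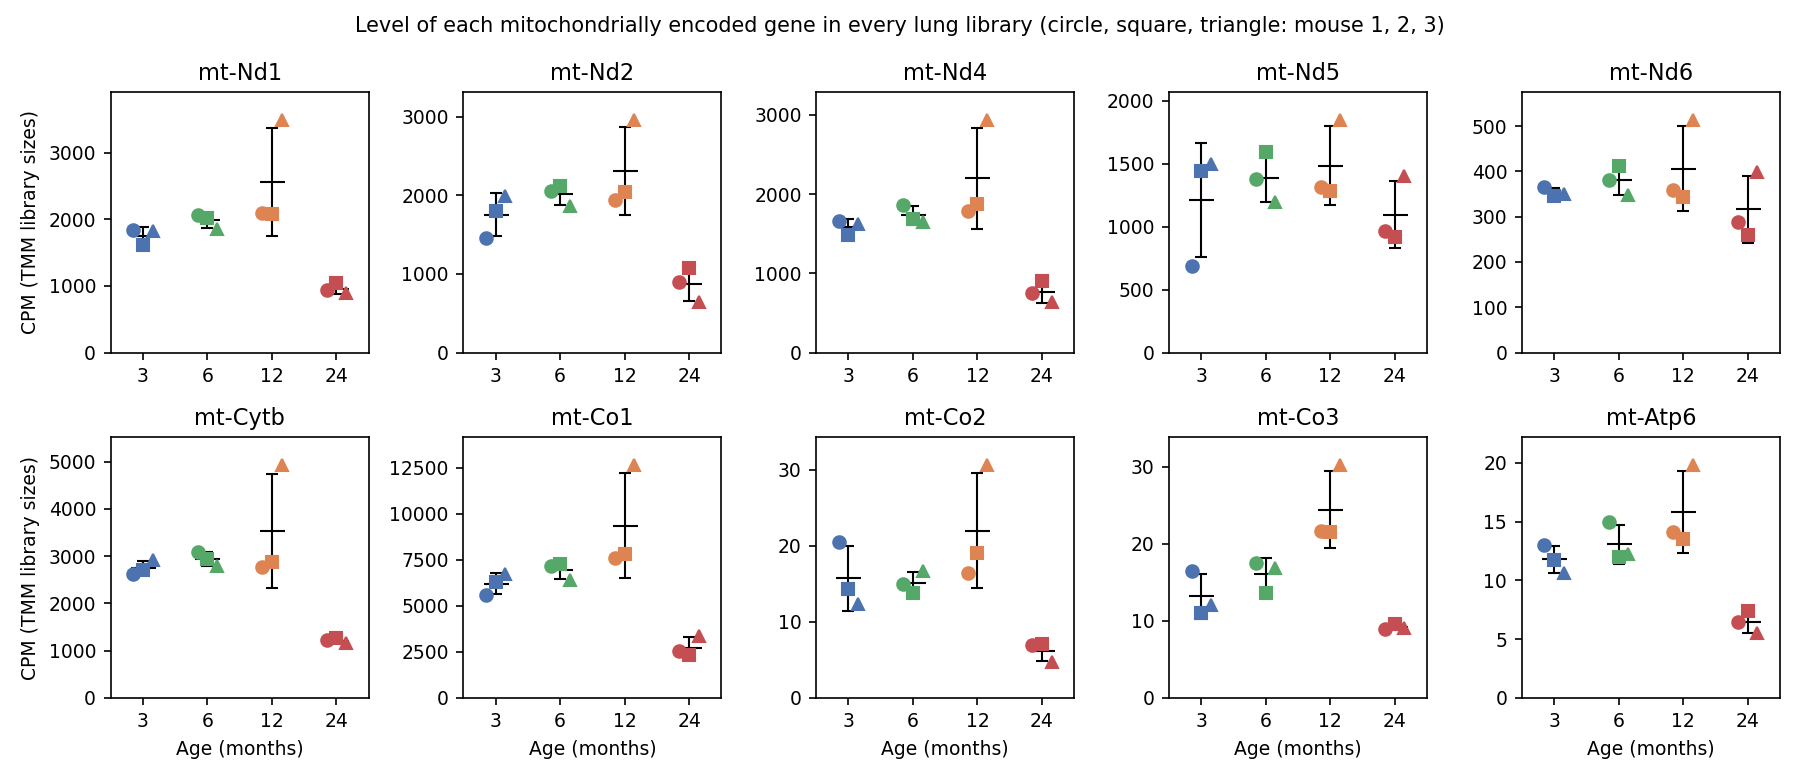
CPM with TMM library sizes in each library, 1 panel per gene, against age in months; points are mice 1 to 3, bars are mean ± SD of 3 mice, and each axis starts at 0. Mouse 3 at 12 months is highest in 10 of 10 panels, and the 24-month mice lie below the 3-month mice in all panels except those of mt-Nd5 and mt-Nd6; after removal of the GC and length trend the direction at 24 months turns.

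Between 24 and 3 months, with TMM, 8 of 10 genes were lower by the edgeR quasi-likelihood test, and the mice of the 2 ages did not overlap in the same 8 (of all tested genes 45.8% lay wholly lower and 38.6% wholly higher); with the GC and length trend removed, 9 of 10 were higher and none lower. Of all tested genes, 44.6% were lower and 38.2% higher with TMM, and 27.5% were higher and 29.6% lower with the trend removed. The median log2 fold change of the 10 genes was -0.94 with TMM, beside -0.29 for all tested genes. With library totals all 10 were lower, beside 53.3% of tested genes, and the medians were -1.65 for the 10 and -1.0 for all genes. With the GC and length trend removed the medians were 0.92 and -0.07. For the 8 genes lower with TMM, the sign of the difference between 24 and 3 months thus turned when the GC trend was taken out. For mt-Nd5 and mt-Nd6, not called with TMM, the value was also just above 0 under RLE size factors in edgeR, at 0.015 and 0.0036, neither called.

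The largest difference with TMM was that of mt-Co2, with a log2 fold change of -1.33 ± 0.28 (SE; adjusted p = 0.000367, edgeR), and without the trend it was 0.28 ± 0.19 (adjusted p = 0.219, edgeR). For mt-Cytb the log2 fold change was -1.18 ± 0.22 with TMM (adjusted p = 0.000127, edgeR) and 0.79 ± 0.14 without the trend. For mt-Co1 it was -1.18 ± 0.23 with TMM (adjusted p = 0.000178, edgeR) and 1.00 ± 0.25 without the trend. The complex I genes mt-Nd4, mt-Nd2 and mt-Nd1 had log2 fold changes of -1.06 ± 0.22, -1.01 ± 0.23 and -0.88 ± 0.22 with TMM, and 0.85, 0.79 and 1.04 without the trend. The value of mt-Atp6 was -0.86 ± 0.22 with TMM and 0.77 ± 0.15 without the trend. Of the 8 calls with TMM that of mt-Co3 was the weakest, at -0.52 ± 0.22 (adjusted p = 0.0382, edgeR), and it was lost with RLE size factors (-0.38, adjusted p = 0.118), with DESeq2 (-0.38, adjusted p = 0.124) and without any 1 of the 3 mice at 24 months, where the value stayed at -0.50 to -0.56.

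The genes mt-Nd5 and mt-Nd6 were not called with TMM. The log2 fold change of mt-Nd5 between 24 and 3 months was -0.15 ± 0.28 (adjusted p = 0.639, edgeR), and that of mt-Nd6 was -0.16 ± 0.22 (adjusted p = 0.497, edgeR). Without mouse 1 at 3 months, the mouse with the lowest mt-Nd5 level, mt-Nd5 was called lower, at -0.64 (adjusted p = 0.0257, edgeR). In that fit the median of all tested genes was -0.46, against -0.29 with all mice. With library totals both genes were lower, by -0.93 ± 0.26 and -0.94 ± 0.19, the smallest of the 10 differences. With the trend removed they were higher, by 2.13 ± 0.35 and 1.19 ± 0.22, the largest of the 10. In the authors' deposited table the log2 fold changes of these genes were -0.05 (adjusted p = 0.913) and -0.06 (adjusted p = 0.842), and those of the other 8 ran from -0.44 for mt-Co3 (adjusted p = 0.103) to -1.24 for mt-Co2.

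**Figure D4:**
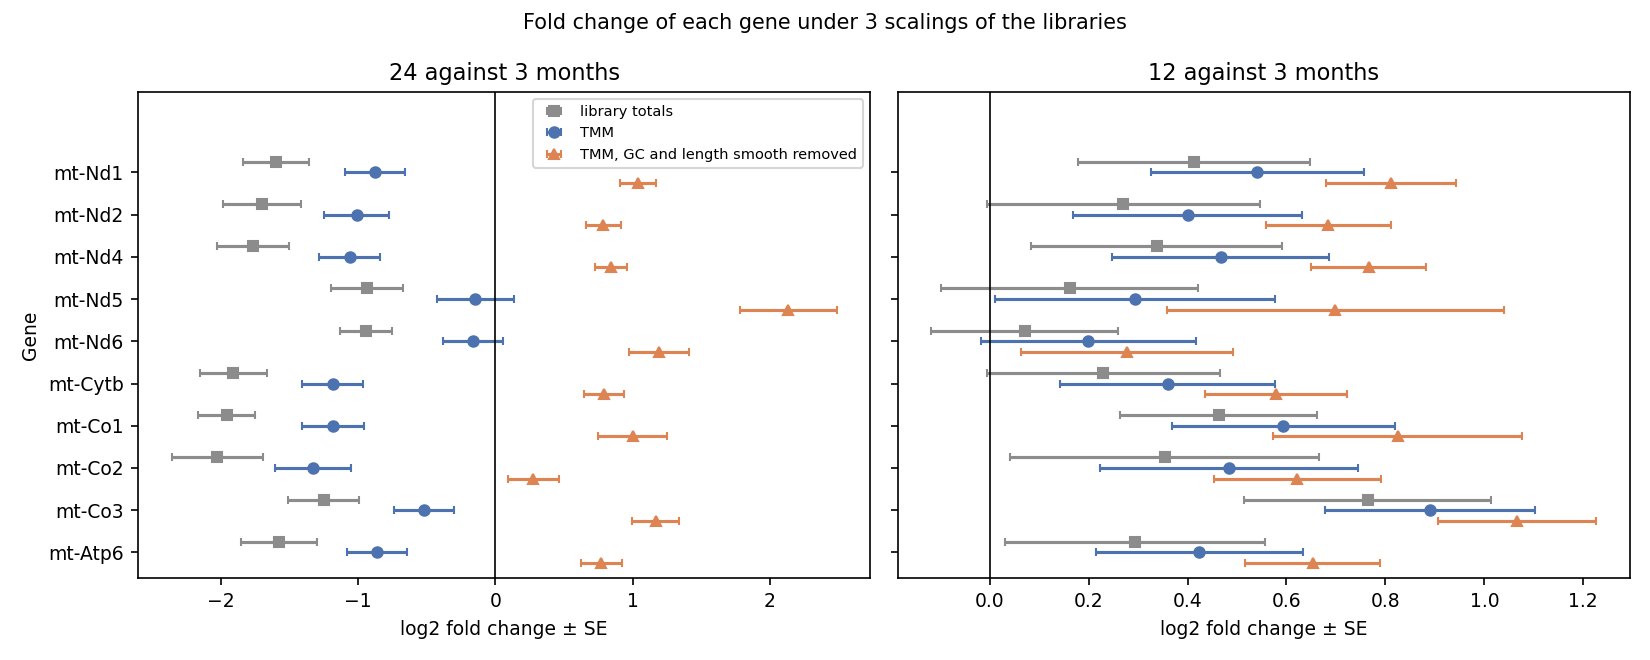
log2 fold change ± SE of each gene from edgeR at 24 against 3 months (left) and 12 against 3 months (right), with library totals (grey squares), TMM (blue circles) and TMM after removal of the trend on GC content and gene length (orange triangles). On the left the values run from -2.02 to -0.93 with library totals, from -1.33 to -0.15 with TMM and from 0.28 to 2.13 with the trend removed; on the right all values lie above 0.

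Between 24 and 12 months the same count of genes, 8 of 10, was lower with TMM, beside 42.5% of all tested genes, while with the trend removed none was lower, beside 22.0%, and 2, mt-Nd5 and mt-Nd6, were higher, beside 20.8%. With library totals all 10 were lower, with a median log2 fold change of -2.01 beside -0.78 for all tested genes. Their 24-month mice then lay wholly below the 12-month mice, as for 49.4% of all tested genes. There mt-Nd5 was at -1.09 ± 0.26 (adjusted p = 0.00163, edgeR) and mt-Nd6 at -1.01 ± 0.19 (adjusted p = 0.000241, edgeR). The log2 fold changes with TMM ran from -1.28 ± 0.22 for mt-Atp6 to -1.81 ± 0.28 for mt-Co2 among the genes called. The values of mt-Nd5 and mt-Nd6 were -0.44 ± 0.28 (adjusted p = 0.164, edgeR) and -0.36 ± 0.22 (adjusted p = 0.138, edgeR). These 2 values were not stable: with 1 mouse left out at a time they ran from -0.73 to -0.25 and from -0.65 to -0.15, and mt-Nd5 was called lower in 7 and mt-Nd6 in 8 of the 12 fits. Both were called without any 1 of the 3-month mice, without mouse 2 or 3 of 6 months, mouse 1 of 12 months or mouse 3 of 24 months, and mt-Nd6 also without mouse 1 of 6 months. In these fits the median of all tested genes moved too. It was -0.20 with all mice and -0.40 without any 1 of the 3- or 6-month mice, which are not in this comparison. It was -0.36 without mouse 1 of 12 months and -0.15 without mouse 3 of 24 months. The values of mt-Nd5 and mt-Nd6 with the trend removed were 1.44 and 0.91. Over all 4 ages 8 of 10 genes differed, again without mt-Nd5 (adjusted p = 0.452, edgeR) and mt-Nd6 (adjusted p = 0.437, edgeR), beside 84.6% of all tested genes.

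Between 12 and 3 months 1 of 10 genes was higher with TMM, beside 6.30% of all tested genes, and none was lower, beside 8.87%. This was mt-Co3, with 24.4 ± 4.98 CPM at 12 months and 13.2 ± 2.88 CPM at 3 months (SD, n = 3) and a log2 fold change of 0.89 ± 0.21 (adjusted p = 0.0168, edgeR). Its 3 mice at 12 months were above all 3 at 3 months, as were those of mt-Nd1, mt-Nd4, mt-Co1 and mt-Atp6. Of all tested genes 24% lay wholly higher and 20.4% wholly lower. Without mouse 3 at 12 months the value of mt-Co3 was 0.71 (adjusted p = 0.0256, edgeR). The call was lost without mouse 2 or mouse 3 at 3 months, with values of 0.77 and 0.82 (adjusted p = 0.111 and 0.0942, edgeR), and with library totals (0.76, adjusted p = 0.0610, edgeR). The RP23-8J15.4 row, the copy of mt-Co3 on chromosome 1, moved by the same log2 value of 0.89 (adjusted p = 0.0154, edgeR). The log2 values of the other 9 genes were all positive, from 0.20 ± 0.22 for mt-Nd6 to 0.59 ± 0.23 for mt-Co1 (adjusted p = 0.0806, edgeR), and did not pass. With the trend removed 8 of 10 were higher, all but mt-Nd5 and mt-Nd6, beside 8.47% of all tested genes; with library totals none was, beside 3.04%.

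A single library stood out at 12 months. Mouse 3 at 12 months had the highest level of all 12 libraries for 10 of 10 genes, with a summed 29397 CPM against 17939 and 18404 in the other 2 mice of that age and 14278 to 18109 in the 6 younger ones. Without it the log2 values between 12 and 3 months were 0.32 for mt-Co1, 0.25 for mt-Nd1, 0.04 for mt-Cytb and -0.01 for mt-Nd6, so that of mt-Nd6 changed sign. Heart muscle, which is rich in mitochondria, can be carried along with lung, and all 11 of its markers on the list had reads in every library. Their summed level in this mouse was 731 CPM, the lowest of the 3 mice at 12 months (731 to 819). That order rested on Myh6, the cardiac myosin heavy chain, at 106 CPM against 214 and 239: without it the other 10 markers summed to 625 CPM in this mouse and to 574 and 580.1 CPM in the other 2, and 6 of the 11 markers were highest of the age in this mouse. At the other ages the heart muscle list summed to between 343 and 638 CPM in the 3-month mice, between 330 and 812 CPM in the 6-month mice and between 750 and 1282 CPM in the 24-month mice. The 5 markers of type 2 cells summed to 35589 CPM in this mouse, within the 34337 to 37726 of its age. Its 3 alveolar macrophage markers summed to 838 CPM, against 443 and 471 in the other 2 mice at 12 months and 499 to 695 in younger mice. The part of these cells in the result was not tested.

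Between 6 and 3 months none of the 10 genes passed, and edgeR called 0 of 16042 genes, with 267 genes and 0 of the 10 at an unadjusted p under 0.05; DESeq2 called 6 genes and none of the 10. The log2 values of the 10 ran from -0.05 ± 0.26 for mt-Co2 to 0.28 ± 0.21 for mt-Co3. The 3 mice of each age overlapped for 9 of 10 genes, the exception being mt-Nd1, whose 6-month mice were all higher, as they were for 5.58% of all tested genes (5.28% were all lower); with library totals none of the 10 separated.

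The mix of the 10 RNAs can be read without any scaling between libraries. Of their summed reads mt-Nd5 took 4.80, 9.19 and 8.85% at 3 months, 7.67, 8.80 and 7.41% at 6 months, 7.35, 6.99 and 6.29% at 12 months and 12.7, 11.8 and 16.5% at 24 months. The 24-month mice thus had the 3 highest shares, and mouse 1 at 3 months, at 4.80%, the lowest. The share of mt-Co1 was 39.1 to 40.3% at 3 and 6 months, 42.4 to 43.0% at 12 months and 33.2, 29.7 and 39.6% at 24 months. In the 24-month mice the share of mt-Nd2 ranged from 7.58 to 13.8%, a wider range than the 10.1 to 11.8% of the other 9 libraries. The 95% Wilson intervals of these shares in single libraries reached at most 0.356 percentage points to either side.

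The subunit from the opposite strand, mt-Nd6, was set against the other 9 as 1 ratio per library. For every 100 reads on the other 9 genes, mt-Nd6 held 2.62, 2.24 and 2.10 reads in the 3-month mice, 2.16, 2.33 and 2.19 at 6 months, 2.04, 1.90 and 1.78 at 12 months and 3.94, 3.45 and 4.92 at 24 months. The 24-month mice were above all others, and the 12-month mice were below all others. The mean log2 ratio was -5.43 ± 0.16 at 3 months, -5.49 ± 0.06 at 6 months, -5.71 ± 0.10 at 12 months and -4.62 ± 0.26 at 24 months (SD, n = 3). The ages differed in this ratio (exact permutation test of the F statistic over 369600 arrangements, p = 0.000844). Without the 24-month libraries the p was 0.0464 (exact permutation test, 1680 arrangements), and leaving out 1 mouse at a time gave 0.000325 to 0.00318. A larger share at 24 months was not particular to the opposite strand. Of the summed reads mt-Nd5, which is among the other 9, took a mean of 7.61% at 3 months and 13.7% at 24 months. The mean share of mt-Nd6 was 2.27% and 3.94%. In composition mt-Nd6 also stands apart, with 28.1% G and 5.97% C where the other 9 have 8.0 to 16.1% G and 23.8 to 27.7% C, and its GC content of 34.1% is the lowest of the 10. At 519 bases mt-Nd6 is also the shortest of the 10. The fitted trend on GC content and gene length, as log2 at 24 minus 3 months, was -1.02 for mt-Nd6. The trend was lower for each of the other 9, among them mt-Co2 (-1.36), mt-Cytb (-1.68) and mt-Co1 (-1.82). It was lowest for mt-Nd5, whose share was also larger at 24 months. The part of GC content and gene length in the ratio was not tested.

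**Figure D5:**
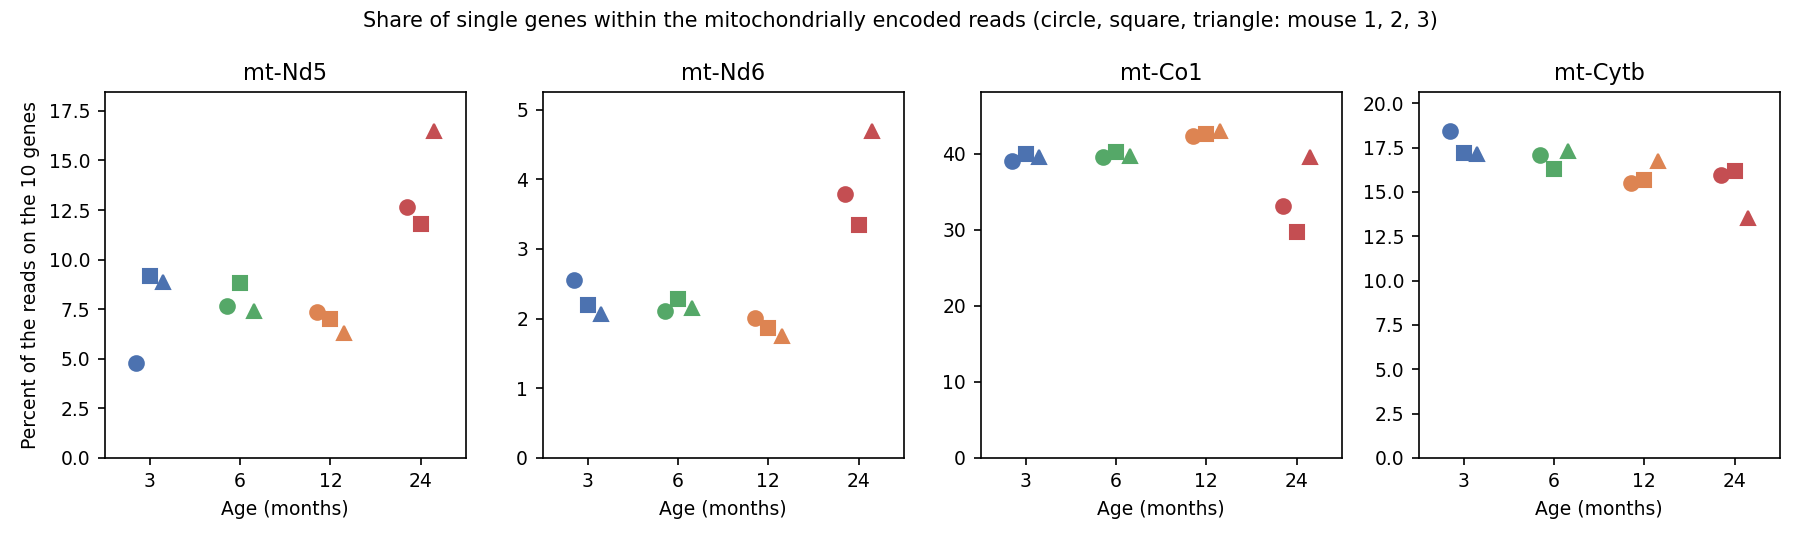
Share of mt-Nd5, mt-Nd6, mt-Co1 and mt-Cytb in the summed reads of the 10 genes, in percent, for each mouse against age in months. At 24 months mt-Nd5 lies at 11.8 to 16.5% and mt-Nd6 at 3.34 to 4.69%, above all younger mice, while mt-Co1 spreads from 29.7 to 39.6%.

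Genes for the machinery that copies and transcribes mitochondrial DNA were mostly lower at 24 than at 3 months with TMM: 13 of 18 were lower and 4 higher, with a median log2 fold change of -1.21 beside -0.29 for all tested genes. With library totals 14 were lower and 3 higher. Of all tested genes 44.6% were lower and 38.2% higher with TMM, and 53.3% were lower with library totals. With the GC and length trend removed 6 were lower and 2 higher, beside 29.6% and 27.5% of all tested genes, with a median of -0.11 beside -0.07. Mterfd1, of the mitochondrial transcription termination factor family, was at 20.9 ± 1.66 CPM at 3 months and 2.72 ± 0.80 CPM at 24 months, and it stayed lower with the trend removed (log2 fold change -0.70, adjusted p = 0.00118, edgeR). Tfb2m, a transcription initiation factor of mitochondria, was at 14.7 ± 0.49 and 1.51 ± 0.65 CPM, with -1.01 once the trend was removed (adjusted p = 0.000381, edgeR). Tfam, which packs mitochondrial DNA and starts its transcription, was at 23.9 ± 2.5 and 6.06 ± 1.22 CPM, and its value of -1.99 with TMM became 0.47 (adjusted p = 0.114, edgeR).

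Of 23 genes for the processing, stability and translation of mitochondrial RNA, 14 were lower and 4 higher with TMM. Their median log2 fold change was -1.14, beside -0.29 for all tested genes. With library totals 17 were lower and 4 higher. After removal of the trend 10 were lower and 3 higher, with a median of -0.35 beside -0.07. Among all tested genes the shares were 44.6% lower and 38.2% higher with TMM and 53.3% lower with library totals. They were 29.6% lower and 27.5% higher with the trend removed. Grsf1, which binds mitochondrial RNA in granules, had a log2 fold change of -2.49 with TMM and -1.29 without the trend. Mtif2, a mitochondrial translation initiation factor, had -3.94 and -1.63, and Ptcd3, a pentatricopeptide repeat protein of the mitochondrial ribosome, had -3.49 and -1.20. All 3 of these were called lower with TMM and without the trend. Of 8 nuclear regulators of mitochondrial genes 4 were higher and 3 lower with TMM, 2 and 3 with library totals, and 1 and 2 without the trend. The same shares of all tested genes stand beside these counts, and so few genes cannot be set apart from them. Median GC content was 47.7% for the 23 genes and 52.0% for the 8 regulators. Among them Gabpa, the DNA-binding subunit of a factor that acts on many respiratory genes, had -3.33 and -0.55 (adjusted p = 0.00314, edgeR, without the trend), its partner Gabpb1 had -1.96 and 0.40 (adjusted p = 0.0471, edgeR), and the nuclear receptor Esrra had 2.26 and 0.14 (adjusted p = 0.259, edgeR).

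The nuclear partners of these subunits in the same complexes did not move as 1 group between 24 and 3 months. Of 7 core subunits of complex I, 5 were higher and 2 lower with TMM, 3 and 2 with library totals, and 4 and 2 with the trend removed. With TMM and with the trend removed, Ndufv1, at the NADH site, was higher by 2.11 and 0.43 on the log2 scale, Ndufs7 by 1.94 and 0.29, and Ndufs1 was lower at -2.65 and -0.45. Of 9 subunits of complex III, 4 were higher and 3 lower with TMM, 2 and 4 with library totals, and 4 and 3 with the trend removed. Uqcrc1 (2.93 and 1.46) and Cyc1, cytochrome c1 (2.56 and 0.66), were higher with TMM and with the trend removed, and Uqcrc2 was called lower with TMM and with library totals but not with the trend removed (-1.60, -2.28 and -0.23). Of 10 subunits of complex IV, 5 were higher and 4 lower with TMM, 3 and 5 with library totals, and 3 and 2 with the trend removed. Cox4i1 was higher with TMM and with the trend removed (2.55 and 1.55), while Cox6a1 (2.02, 1.17 and 0.29) and Cox8a (1.62, 0.82 and 0.24) were called with TMM and with library totals but not with the trend removed. Of 15 subunits of ATP synthase, 9 were higher and 4 lower with TMM, 5 and 6 with library totals, and 8 and 2 with the trend removed. For complexes III and IV and ATP synthase the larger count was thus on the lower side with library totals and on the higher side with TMM. The whole table moved the same way with the scaling. Of all tested genes 44.6% were lower and 38.2% higher with TMM, and 53.3% were lower with library totals. With the trend removed 29.6% were lower and 27.5% higher. The median log2 fold change of all tested genes was -0.29 with TMM and -1.0 with library totals. Atp5g1 (2.10 and 3.72), Atp5g2 (1.95 and 0.54) and Atp5k (1.53 and 0.78) were higher with TMM and with the trend removed. The median GC content of these 4 lists ran from 49.4 to 53.3%, against 37.4% for the 10 mitochondrially encoded genes.

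Among themselves the 10 genes varied together to different degrees. Over the 12 libraries, the Pearson correlation of log2 CPM between 2 of them ran from 0.21 to 0.99 with a median of 0.89 over 45 pairs, and over the 9 libraries of 3 to 12 months from -0.05 to 0.99 with a median of 0.83. Such values share the library, its scaling and mouse 3 at 12 months, and are given as a description. The genes whose log2 CPM was most like the mean of the 10 over 12 libraries were Tmed10, a carrier of secretory cargo (r = 0.987), Cycs, which encodes cytochrome c itself (0.986), a gene whose symbol the deposited table has turned into a date (0.983), Mgst1, a microsomal glutathione transferase (0.982), and Sumo2 (0.982). In all, 6.45% of tested genes had an r over 0.9. Over the 9 libraries of 3 to 12 months, where 0.717% of genes had such an r, the nearest were Igkv5-43 (0.977), Igkv3-12 (0.974), Acad11, an acyl-CoA dehydrogenase (0.968), Igkv17-127 (0.967) and Phf11b (0.961). The 2 lists had no gene in common, and the second includes 3 immunoglobulin kappa V segments, at mean levels of 0.536 to 1.03 CPM at 3 months.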

How the data were processed

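Reads per gene, FPKM and gene lengths came from the authors' deposited table. The values tested were counts deposited by the authors for each library. FPKM values were computed by the authors per the file headers and used here only to compare levels between genes. The authors' deposited log2 fold changes and adjusted p-values against 3 months were copied, and the test that made them is not stated in the sources. Per the submitters' processing notes the tools included TopHat, STAR 2.5 and HTSeq 0.6.1, with mm10 as the build; their roles are not stated.

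The 10 genes and all lists were chosen with earlier results of these data known. Genes passing filterByExpr (16042) were scaled with TMM and fitted with the edgeR 4.0.16 quasi-likelihood test on all 12 libraries (limma 3.58.1, R 4.3.3), with Benjamini-Hochberg adjustment within each comparison and a threshold of 0.05. Levels are CPM of TMM-scaled libraries, and library depth was 14.7 to 21.2 M gene reads. All 10 genes were named. Up to 3 genes per list with the smallest p at 24 against 3 months were named, and the 5 nearest patterns by Pearson correlation of log2 CPM (prior count 2). The GC and length alternative fits a smooth of log reads on GC content and gene length per library (mgcv 1.9-3) as an offset. It changes with the libraries of each age, so it can take out true differences that run with GC content. GC content was known for 15949 tested genes, from GENCODE M21. The fits were tested on simulated data. Nuclear copies were found by aligning GENCODE M21 transcripts of the table's rows, whose positions matched for 13 of 13 mitochondrial genes. The edgeR p-values rest on the spread between the 3 mice of an age. In the main fit this spread was estimated over all 12 libraries together, with information shared across genes. The p of the mt-Nd6 ratio comes from rearranging libraries among the ages. Other alternatives were RLE factors, DESeq2 1.42.0, limma voom, other filters, a block for mouse number, and leaving out mice. Mouse numbers were not treated as pairs.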

Additional observations from a re-analysis of the deposited data

How the results depend on the processing

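With TMM, 8 genes were lower at 24 against 3 and at 24 against 12 months. Each of the 8 stayed below 0 under RLE factors, DESeq2, voom, both filters, the replicate block, a fit of the pair of ages alone, each left-out mouse and 2 alternatives added after the data were seen, library totals and the reads of the chromosome 1 copy added to the gene. Only alternatives that take out GC content, which offset the higher GC content of the 24-month libraries by construction, turned any of them. At 24 against 12 months mt-Co2 did not turn with the GC and length offset (-0.35, adjusted p = 0.151, edgeR).

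At 24 against 3 months 0 genes were lower and 9 higher with the GC and length offset, 0 and 10 with a GC offset, and 0 and 9 with the GC and length offset and the replicate block together. Of all 16042 tested genes 9162, 9371 and 8966 were called in either direction under the 3, against 13277 with TMM. The log2 fold changes under these 3 in turn were 1.04, 1.48 and 1.03 for mt-Nd1, 0.79, 1.11 and 0.79 for mt-Nd2, 0.85, 1.07 and 0.85 for mt-Nd4, 2.13, 2.28 and 2.14 for mt-Nd5, 1.19, 1.95 and 1.16 for mt-Nd6, 0.79, 1.31 and 0.78 for mt-Cytb, 1.00, 1.43 and 0.96 for mt-Co1, 0.28, 1.03 and 0.28 for mt-Co2, 1.17, 1.91 and 1.18 for mt-Co3, and 0.77, 1.27 and 0.77 for mt-Atp6.

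At 24 against 12 months 0 genes were lower and 2 higher with the GC and length offset, 0 and 4 with the GC offset, and 0 and 2 with the GC and length offset and the replicate block. The log2 fold changes in the same order were 0.23, 0.53 and 0.22 for mt-Nd1, 0.10, 0.29 and 0.11 for mt-Nd2, 0.079, 0.20 and 0.079 for mt-Nd4, 1.44, 1.53 and 1.37 for mt-Nd5, 0.91, 1.35 and 0.88 for mt-Nd6, 0.21, 0.53 and 0.20 for mt-Cytb, 0.17, 0.41 and 0.12 for mt-Co1, 0.10, 0.56 and 0.10 for mt-Co3, and 0.12, 0.42 and 0.11 for mt-Atp6. For mt-Co2 the GC offset gave 0.14, and the other 2 stayed below 0. Of all genes 6864, 7121 and 6592 were called under the 3, against 12791.

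At 12 against 3 months 1 gene was higher with TMM, 2 with DESeq2, 8 with each of the 3 GC alternatives, 0 with library totals and 3 without the 24-month libraries, which was also added later. Of all genes 2433 were called, 1587 with the replicate block, 3938 with the pair of ages alone, 3879 with the GC offset and 5737 without the 24-month libraries. At 6 against 3 months 0 of all genes were called, 6 with DESeq2, 2 with no filter, and 1 each with the pair of ages alone and the 3 GC alternatives. The cause was not tested.

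Leaving out 1 mouse at a time gave 7 to 9 lower genes at 24 against 3 months, 8 to 10 at 24 against 12 months (the added ones being mt-Nd5 and mt-Nd6), 0 to 3 higher at 12 against 3 months and 8 to 9 with any difference. Of all genes it gave 298 to 5918 calls at 12 against 3 months, namely 5918 without mouse 3 of 24 months, 298 and 491 without mouse 2 and mouse 3 of 3 months, 1079 and 759 without mouse 1 and mouse 2 of 12 months, and 1615 without mouse 1 of 6 months as the ones over 1.5 times away, and 12701 to 13577 at 24 against 3, 12288 to 12725 at 24 against 12 and 0 to 1 at 6 against 3. The replicate block, in which mouse numbers stand for pairs that the correlations did not bear out (median r -0.05 over 18 same-number pairs, 4 over 0.1), ended the call of mt-Co3 at 24 against 3 months (-0.50, adjusted p = 0.0535, edgeR), as did voom (-0.50, adjusted p = 0.0599) and no filter (-0.52, adjusted p = 0.0686). It left the mt-Nd6 ratio at p = 0.00694 (exact permutation test within mouse numbers). Counting error is small for the 7 abundant genes, with at least 3407 reads each per library, and larger for mt-Co2, mt-Co3 and mt-Atp6, with as few as 40.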
